A study of Homo sapiens with 6 samples.

Results

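The insulin-like growth factor (IGF) binding proteins IGFBP1 to IGFBP7 were examined together with the IGF receptor IGF1R, the insulin receptor INSR and the receptor adaptor IRS2. All probe sets annotated to exactly 1 of these symbols were taken, which gave 33 of 44994 probe sets and 10 of 18132 genes. The genes were selected on the log2 change of IGFBP1 between these same arrays and on their kinship with it, so the differences of the 10 genes between knockdown and control are a description without p-values. The word "rose" or "fell" marks a limma adjusted p under 0.05 over all genes or over all probe sets.

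The cells were A549, an established human lung adenocarcinoma line, grown in medium with serum. In the knockdown group (3 arrays) the long noncoding RNA LINC00525 was silenced, and the control group (3 arrays) received a scrambled sequence. The titles of both groups carry "sh", whereas the treatment text speaks of siRNA. No source used here gives the time from treatment to harvest. All 3 knockdown titles name LINC00525, but the genotype field reads LINC00526 for knockdown replicate 2 and LINC00527 for knockdown replicate 3. Nothing in the labels says that the replicates are separate cultures, so the spread between arrays may be technical.

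The silenced transcript itself lay at 3.55 ± 0.11 log2 units on knockdown arrays and 3.86 ± 0.12 on control arrays (SD, n = 3 each), close to background; the log2 change was -0.30 ± 0.075 (SE) with a limma adjusted p = 0.0372. That call was lost without knockdown replicate 2 or 3 or without control replicate 1 or 3 (limma adjusted p of 0.096 to 0.111). CDKN1A, the cell-cycle inhibitor p21, rose by 0.55 ± 0.055 (SE, limma adjusted p = 0.00089). All 6 measured epithelial markers, keratins and cell adhesion genes among them, had a mean signal above every one of the 17 Tag probe sets, which are array controls with no human target. Of the measured leukocyte, fibroblast and endothelial markers, 1 of 4, 1 of 4 and 1 of 3 did. So did 4 of 5 alveolar type 2 markers and 3 of 5 hepatocyte genes, beside 11364 of all 18132 genes. None of the 5 hepatocyte genes rose or fell (limma, beside 12.6% of all genes called), with log2 changes from -0.13 to 0.06. An unadjusted limma p under 0.05 was found for 1 of the 5, beside 4814 of all 18132 genes. In RNA from a whole culture, more cells expressing a gene and more RNA per cell cannot be told apart.

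IGFBPs are secreted proteins that bind the growth factors IGF1 and IGF2 and hold them away from their receptors. Proteases such as pappalysin cut the binding proteins and set the growth factors free. IGF1R and INSR then signal through IRS adaptors to PI3 kinase and AKT, which keeps FOXO transcription factors out of the nucleus. IGFBP1 is classically made by liver, where fasting, glucocorticoids and cell stress raise it and insulin lowers it. IGFBP3 is the main carrier of IGFs in blood.

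Of the 10 genes, IGFBP1 stood alone in the size of its difference. IGFBP1 signal was 8.27, 8.20 and 8.13 log2 units on knockdown replicates 1, 2 and 3, against 6.73, 6.36 and 6.68 on control replicates 1, 2 and 3. The lowest knockdown array thus lay 1.40 above the highest control array, and control replicate 2 was the lowest of all 6. The group means were 8.20 ± 0.07 and 6.59 ± 0.20 (SD, n = 3 each), so that IGFBP1 rose 3.05-fold on knockdown arrays (log2 1.61 ± 0.095 SE). Ranked by rise, it was number 20 of 18132 genes. Leaving out any single array gave log2 changes of 1.495 to 1.68. The call was kept each time, which is no independent support because the gene was selected on this difference. IGFBP1 was read by a single probe set, whose suffix _s_at marks probes shared by several transcripts, and no second probe set was there to set beside it. No Tag probe set lay above its mean in either group.

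**Figure D1:**
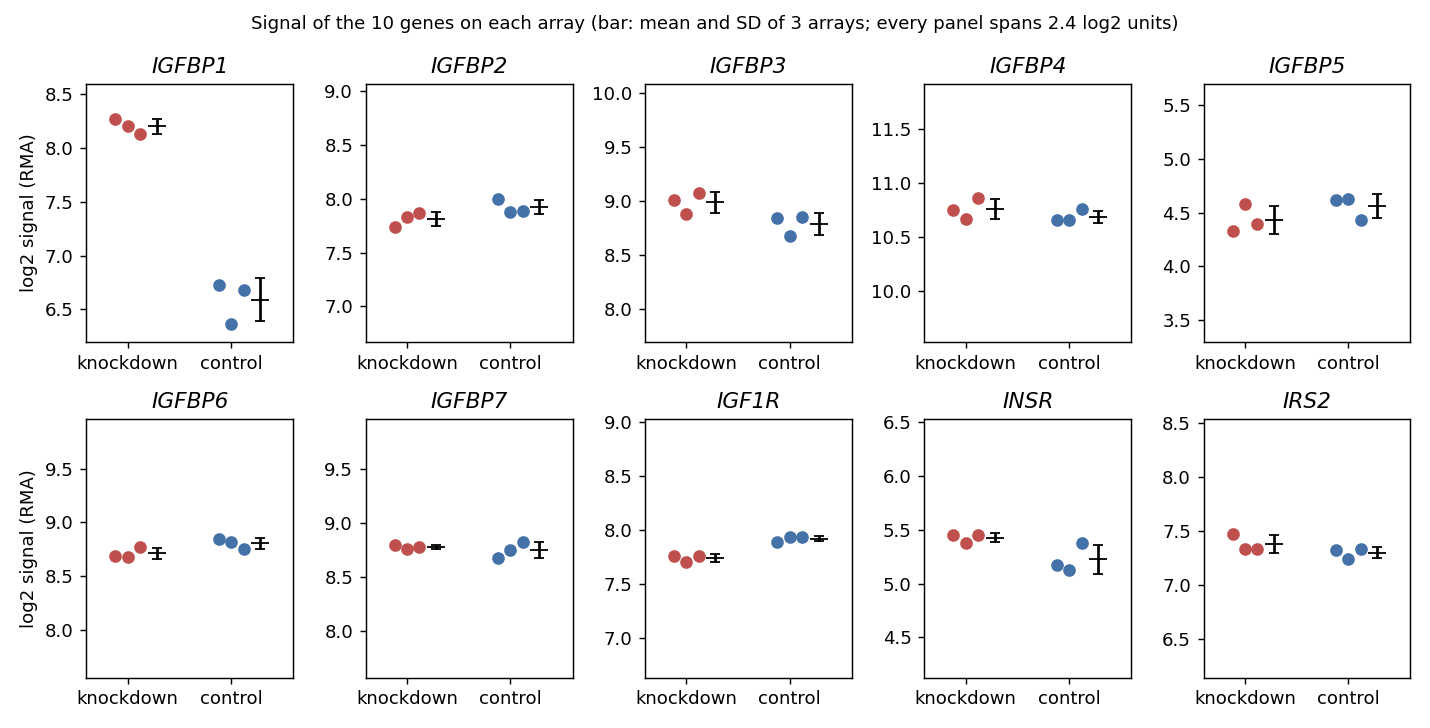
Log2 signal of the 10 genes on each array, at the probe set with the highest mean, with knockdown arrays left (red) and control arrays right (blue). Black bars give the mean and SD of 3 arrays and all panels span the same number of log2 units. IGFBP1 lies at 8.13 to 8.27 on knockdown arrays and at 6.36 to 6.73 on control arrays, and no other panel shows a comparable gap.

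IGFBP3 is the gene next to IGFBP1 on chromosome 7, with 0 genes listed between them in the RefSeq annotation of GRCh38.p14. Its probe set with the higher signal read 9.01, 8.88 and 9.07 on knockdown arrays, against 8.84, 8.67 and 8.85 on control arrays. The groups did not overlap, and in each group replicate 2 was the lowest. The means were 8.99 ± 0.097 and 8.79 ± 0.10 (SD, n = 3 each), a log2 change of 0.20 ± 0.068 (SE) that did not pass the threshold. The same difference passed with an intensity trend and robust eBayes, and so did the mean of both probe sets, at 0.23. The other IGFBP3 probe set read 8.62, 8.44 and 8.65 on knockdown arrays and 8.30, 8.25 and 8.38 on control arrays. It rose by 0.26 ± 0.066 (SE), or 1.20-fold. Both IGFBP3 differences turned negative, to -0.08 and -0.02, once arrays were scaled to spiked-in bacterial hybridization transcripts (the hybridization controls). The median gene was itself at -0.29 on that scale. With arrays scaled to the poly-A controls, another set of spiked-in transcripts, both stayed positive, at 0.06 and 0.12.

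The change of IGFBP1 exceeded that of IGFBP3 by 1.41 ± 0.098 log2 units (SE over arrays, n = 3 each), which is 2.66-fold. Against the second IGFBP3 probe set the excess was 1.35 ± 0.12. This excess is a difference of changes within the same arrays, so it does not move with a scaling that shifts whole arrays. It ranged from 1.35 to 1.49 when single arrays were left out.

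RefSeq promoter windows matched 8 of the 10 genes (10 windows). IGFBP1 and IGFBP7 had no matching window and were not searched here, so the promoter shown is that of IGFBP3, the neighbour of IGFBP1. The 250 bases before the annotated start of IGFBP3 (GRCh38.p14, chr7:45921273-45921522, minus strand, written 5′ to 3′ in the direction of transcription) follow, with GC boxes in capitals.
IGFBP3: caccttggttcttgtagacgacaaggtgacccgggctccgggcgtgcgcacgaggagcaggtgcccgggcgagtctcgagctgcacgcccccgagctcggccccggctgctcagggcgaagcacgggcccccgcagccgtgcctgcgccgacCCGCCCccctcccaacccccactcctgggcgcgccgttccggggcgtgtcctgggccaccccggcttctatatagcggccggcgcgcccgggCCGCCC
The stretch was 76% G and C and held 2 GC boxes (GGGCGG, either strand, here read on the opposite strand), a motif present in 42.5% of 34943 RefSeq windows of that length. Searches on both strands for TATAAA, the insulin response core CAAAACA, the AP-1 motif TGANTCA, the C/EBP-ATF motif TGATGNAA and the hypoxia core ACGTG found no match in it. These letters occurred in 10.8%, 4.31%, 6.59%, 3.15% and 18.5% of all windows. Variants of these letters were not searched for, and the stretch does hold TATATA. Among the 8 genes with a window, CAAAACA was found 1 time, before IRS2; whether it lies before IGFBP1 was not examined. The 2 GC boxes do not overlap, and a match is no evidence of binding.

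The gene order around the pair was read from the same annotation. LINC00525 lies on the same chromosome on the IGFBP3 side, with 22 listed genes between it and IGFBP3, of which 3 were measured. Of the 5 nearest measured genes on each side, LINC00525 is 1, and of the 9 others 0 rose and 0 fell (limma). Over all genes 12.6% were called, and with 9 genes a count of 0 cannot be told apart from that share. An unadjusted limma p under 0.05 was found for 1 of the 9, beside 4814 of all 18132 genes. That gene was TNS3, which encodes the focal adhesion protein tensin 3. It read 10.57, 10.58 and 10.61 on knockdown arrays, against 10.71, 10.79 and 10.68 on control arrays, a log2 change of -0.14 ± 0.042 (SE, limma adjusted p = 0.0727), and it passed with its probe sets averaged, at -0.25 (limma adjusted p = 0.0113). The adenylyl cyclase ADCY1 was at -0.09 and the receptor activity-modifying protein RAMP3 at -0.11, NACAD at 0.01, TBRG4 at -0.02, the small nucleolar RNA SNORA5A at -0.03, LOC105375268 at -0.04, LINC02902 at 0.11 and PKD1L1 at 0.02. For 5 of the 9, at least 1 Tag probe set exceeded the control signal.

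**Figure D2:**
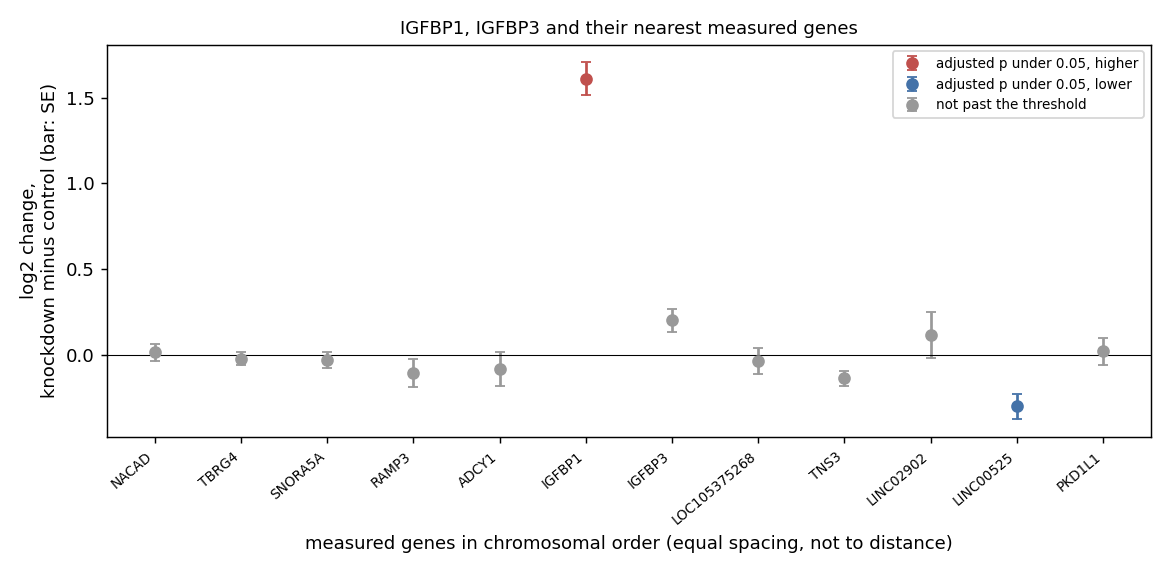
Log2 change (knockdown minus control) with its SE for IGFBP1, IGFBP3 and the 5 nearest measured genes on each side, in chromosomal order with equal spacing. IGFBP1 stands at 1.61, IGFBP3 at 0.20, LINC00525 at -0.30 and the remaining genes at -0.14 to 0.11.

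Across the 10 genes, 1 rose (IGFBP1) and 1 fell (IGF1R), or 20% called, beside 12.6% of all genes (5.77% rose and 6.83% fell). The groups did not overlap for 4 of the 10, namely IGFBP1 and IGFBP3 above and IGFBP2 and IGF1R below, beside 30.8% of all genes (12.9% above and 17.9% below). The median log2 change was 0.05 over the 10 and 0.03 without IGFBP1, beside -0.01 over all genes. By probe set, 3 rose, 1 fell and 29 did not pass, which is 12.1% called beside 10.1% of all probe sets (4.76% rose and 5.33% fell). Nothing is read from these shares, since the contrast was known when the group was formed.

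**Figure D3:**
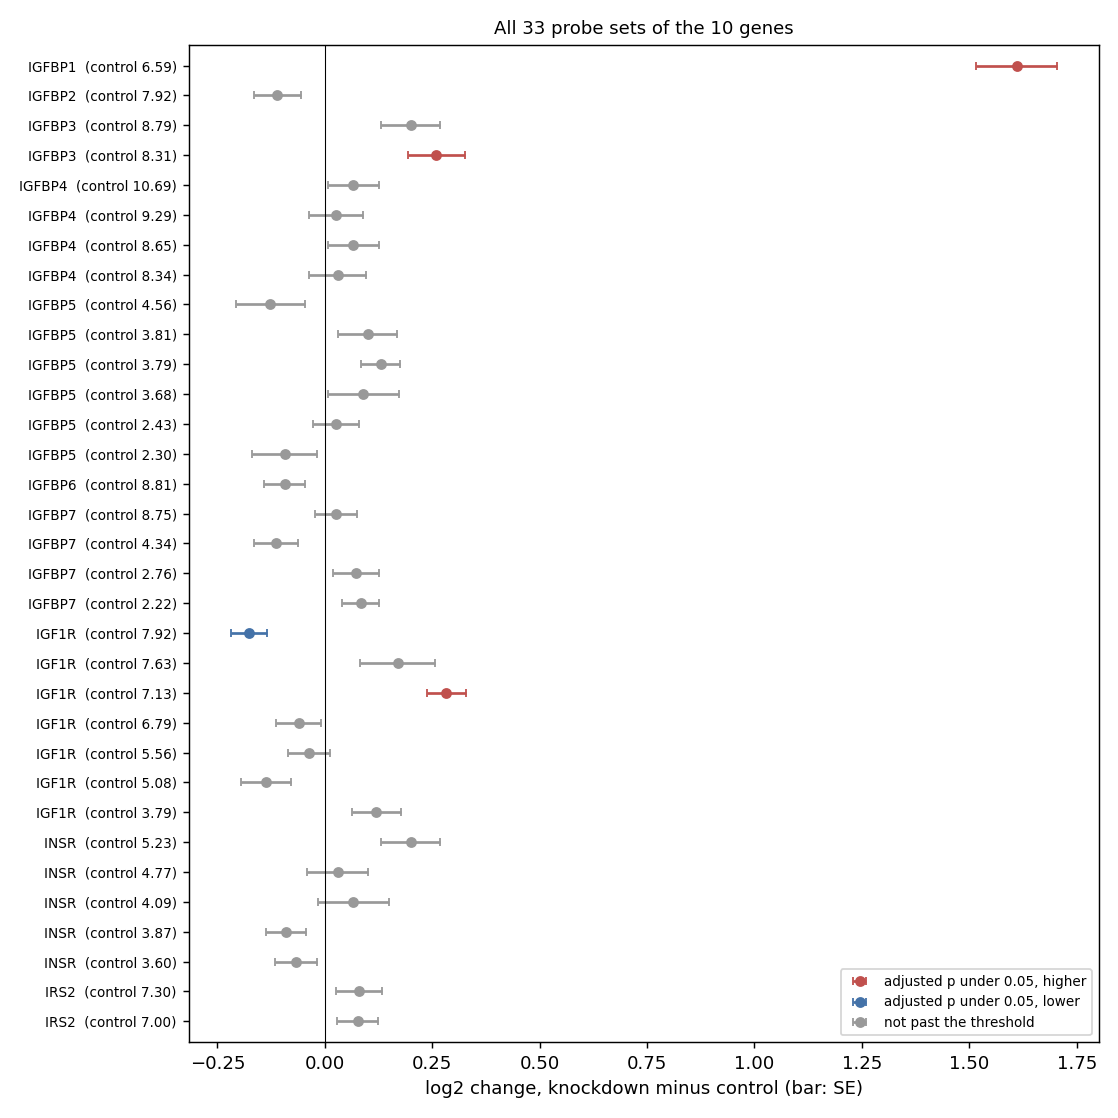
Log2 change (knockdown minus control) with its SE for all 33 probe sets, each labelled with its gene and its mean log2 signal on control arrays. The IGFBP1 probe set is at 1.61. All others lie between -0.18 and 0.28, and those of IGF1R fall on both sides of 0.

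The other binding proteins were not called at any probe set on the deposited scale. Scaled to the hybridization controls, where the median gene was itself at -0.29, all of them passed as falls. IGFBP2 was then at -0.39, IGFBP6 at -0.37, IGFBP5 at -0.41, IGFBP4 at -0.21 and IGFBP7 at -0.25. IGFBP2, which binds IGF1 and IGF2, read 7.74, 7.83 and 7.87 on knockdown arrays, against 8.0, 7.88 and 7.89 on control arrays (log2 -0.11 ± 0.052 SE). Its knockdown values all lay below the control values, the nearest pair 7.87 and 7.88. IGFBP4, an inhibitory binding protein and the classical substrate of pappalysin, had signals of 10.75, 10.67 and 10.86 on knockdown arrays, against 10.66, 10.66 and 10.76 on control arrays. Its 4 probe sets gave log2 changes of 0.03 to 0.07, and the groups overlapped. IGFBP6, which prefers IGF2, read 8.69, 8.68 and 8.77 on knockdown arrays, against 8.85, 8.82 and 8.75 on control arrays (log2 -0.09 ± 0.045 SE).

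IGFBP7, which binds IGFs only weakly, read 8.80, 8.76 and 8.78 on knockdown arrays, against 8.68, 8.75 and 8.83 on control arrays at the probe set with the highest signal. Its log2 change was 0.03 ± 0.047 (SE) with overlapping groups, and its 3 dimmer probe sets, each under at least 1 Tag probe set, gave -0.11 to 0.08. IGFBP5, a binding protein tied to the extracellular matrix, was near background. All 6 of its probe sets had at least 1 Tag probe set above them. The brightest read 4.33, 4.58 and 4.39 on knockdown arrays, against 4.62, 4.63 and 4.43 on control arrays, and the 6 log2 changes ran from -0.13 to 0.13. Small differences of IGFBP5 were not measurable at that signal.

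The receptor genes gave mixed readings. The IGF1R probe set with the highest signal read 7.76, 7.70 and 7.76 on knockdown arrays, against 7.89, 7.93 and 7.93 on control arrays. It fell by 0.18 ± 0.038 on the log2 scale (SE), with no overlap. Another IGF1R probe set read 7.40, 7.39 and 7.44 on knockdown arrays, against 7.13, 7.07 and 7.18 on control arrays, and rose by 0.28 ± 0.046. Scaled to the hybridization controls the first was at -0.46 and the second at 0.002, and scaled to the poly-A controls they were at -0.32 and 0.14. The remaining 5 did not pass, at -0.14 to 0.17. The data therefore give no single direction for IGF1R, and with its 7 probe sets averaged the change was 0.02. The call of the falling probe set was lost without knockdown replicate 2 or without any 1 of the 3 control arrays.

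INSR read 5.45, 5.38 and 5.45 on knockdown arrays, against 5.17, 5.13 and 5.38 on control arrays at its brightest probe set. The groups met at 5.38, and the log2 change of 0.20 ± 0.068 (SE) did not pass. Without control replicate 3, the highest control array, the change was 0.28 and passed. The other 4 INSR probe sets gave -0.09 to 0.07, 3 of them under at least 1 Tag probe set. IRS2, an adaptor that links both receptors to PI3 kinase, read 7.47, 7.33 and 7.33 on knockdown arrays, against 7.32, 7.24 and 7.33 on control arrays. Its 2 probe sets gave 0.08, and neither passed.

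Around the binding proteins, the protease gene PAPPA and the genes of its inhibitors STC1 and STC2 rose, while the other IGFBP proteases PAPPA2 and HTRA1 did not pass. Of 46 other genes of the IGF pathway 40 were measured. Of these, 10 rose, 0 fell and 30 did not pass (limma), or 25% called beside 12.6% of all genes. An unadjusted limma p under 0.05 was found for 14 of the 40, beside 4814 of all 18132 genes. The median log2 change was 0.01, beside -0.01 over all genes. Rises of STC2, DDIT4 and DDIT3 were known when the lists were drawn up and are not independent evidence of a direction.

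PAPPA, which encodes pappalysin 1, the protease that cuts IGFBP4, read 9.80, 9.74 and 9.73 on knockdown arrays, against 9.24, 9.19 and 9.28 on control arrays. It rose 1.43-fold (log2 0.52 ± 0.042 SE, limma adjusted p = 0.000334). STC1 and STC2 encode stanniocalcins, secreted glycoproteins that inhibit pappalysin. STC1 read 7.58, 7.69 and 7.67 on knockdown arrays, against 6.90, 6.85 and 6.76 on control arrays, a 1.75-fold rise (log2 0.81 ± 0.051 SE, limma adjusted p = 9.96e-05). STC2 read 6.76, 6.77 and 6.69 on knockdown arrays, against 6.06, 6.05 and 5.98 on control arrays, a 1.64-fold rise (log2 0.71 ± 0.043 SE, limma adjusted p = 7.53e-05). The protease and both of its inhibitors were thus higher on all 3 knockdown arrays than on any control array, as were 12.9% of all genes. Leaving out any array kept these calls, with adjusted p of at most 0.0031 for PAPPA, 0.00135 for STC1 and 0.00103 for STC2. PAPPA2, the related protease of IGFBP5, was at -0.03 ± 0.059 (limma adjusted p = 0.80). HTRA1, a secreted serine protease that can cut IGFBP5, was at 0.10 ± 0.037 (limma adjusted p = 0.138), and HTRA3 and HTRA4 of the same family were at -0.05 and -0.04 without passing.

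Of the growth factors themselves, IGF1 read 4.19, 4.17 and 4.20 on knockdown arrays, against 4.12, 4.19 and 4.10 on control arrays, with 1 Tag probe set above it in each group (log2 0.05 ± 0.040 SE, limma adjusted p = 0.486). IGF2 had no probe set of its own, because its probe sets are shared with the INS-IGF2 readthrough gene, and was not analysed here. The scavenger receptor IGF2R and the adaptor IRS1 were both at 0.02 at their brightest probe sets (limma adjusted p of 0.785 and 0.79). A dimmer IRS1 probe set rose by 0.23 (limma adjusted p = 0.0221), and another was at 0.03 without passing. IGFALS, the partner of IGFBP3 in serum, was at -0.05.

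Inside the cell, RICTOR, a subunit of the mTOR complex that phosphorylates AKT, rose 1.43-fold (log2 0.51 ± 0.049 SE, limma adjusted p = 0.00076). TRIB3, a pseudokinase that can bind AKT, rose by 0.35 and DDIT4, an inhibitor of mTOR complex signalling, by 0.33. Neither passed when scaled to the hybridization controls, at 0.07 and 0.05. Both passed when scaled to the poly-A controls, at 0.21 and 0.19. IGF2BP2, an RNA-binding protein that binds IGF2 mRNA and not the growth factor, rose by 0.47 at its brighter probe set (limma adjusted p = 0.000833) and was at -0.01 at a probe set near background. Scaled to the hybridization controls the brighter one was at 0.19 and did not pass (limma adjusted p = 0.0619). When scaled to the poly-A controls it was at 0.33 and passed (limma adjusted p = 0.000963). IGF2BP3, of the same family, rose by 0.15, a call that was lost without any 1 of the 6 arrays (limma adjusted p of 0.0531 to 0.124) and turned to -0.13 when scaled to the hybridization controls. Kinases AKT1 (-0.08), AKT2 (-0.07) and MTOR (0.01) did not pass at their brightest probe sets. A dimmer AKT2 probe set was at -0.30 and fell (limma adjusted p = 0.0431). Another, with 1 Tag probe set above it, was at 0.34 and rose (limma adjusted p = 0.026).

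**Figure D4:**
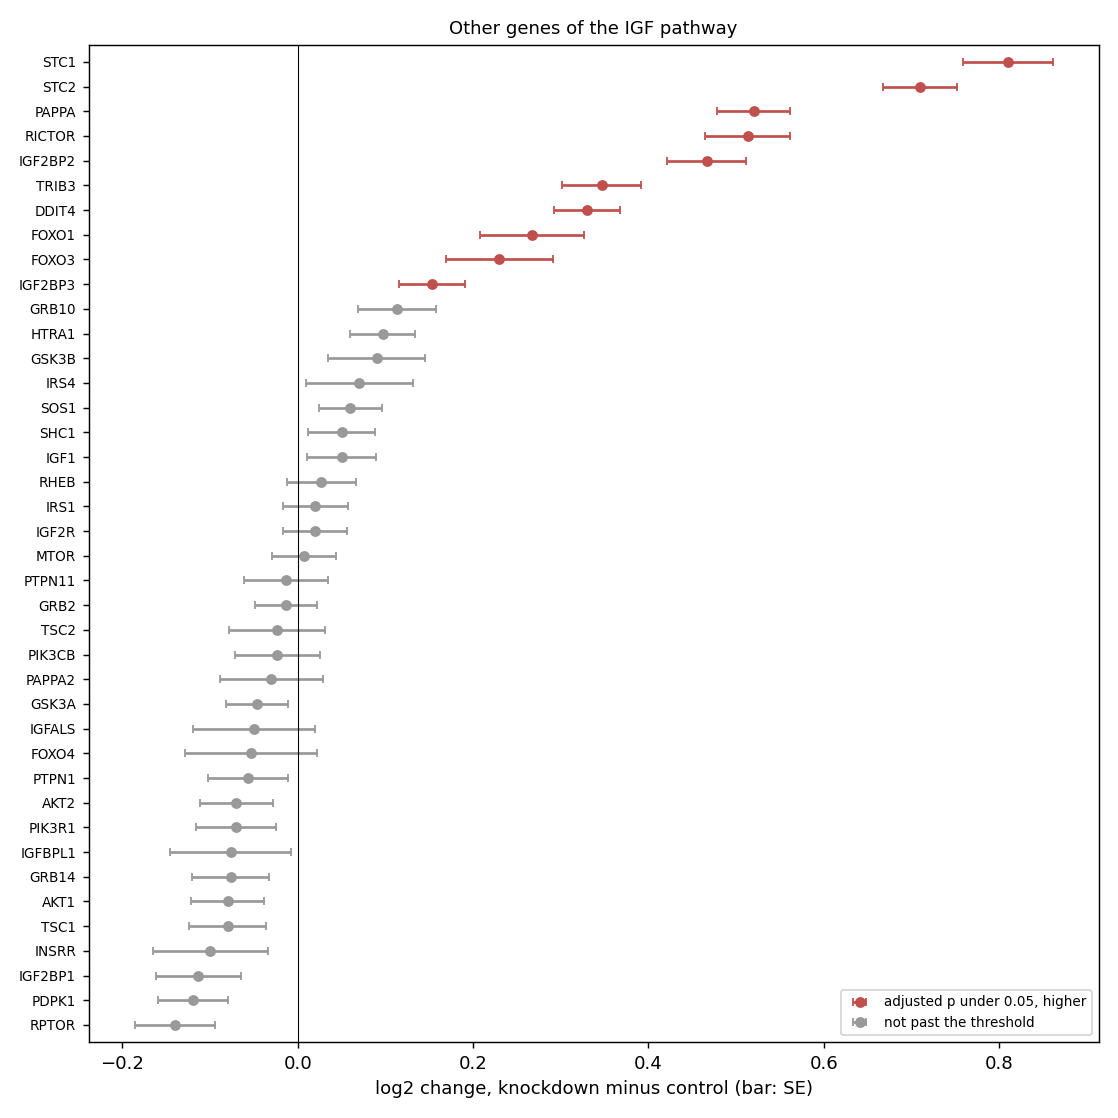
Log2 change (knockdown minus control) with its SE for the 40 measured genes of the IGF pathway other than the 10, ordered by change. The stanniocalcins STC1 and STC2 and the protease PAPPA lie at the top, at 0.81, 0.71 and 0.52, and the lowest gene, RPTOR, is at -0.14 and did not pass.

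Of 27 transcription factors known to act on IGFBP1 or IGFBP3, 22 were measured. Of them, 4 rose, 2 fell and 16 did not pass (27.3% called, beside 12.6% of all genes). The median log2 change was 0, beside -0.01 over all genes. With probe sets averaged, 6 rose and 2 fell. HIF1A, 1 of the 16, was at 0.07 at the brightest of its 8 probe sets. Dimmer ones rose by 0.25, 0.30, 0.30, 0.32 and 0.35 (limma adjusted p of 0.00868 to 0.0272). The rest, at 0.26 and 0.27, did not pass (limma adjusted p of 0.0503 and 0.0687). DDIT3, the stress factor CHOP, read 6.34, 6.47 and 6.45 on knockdown arrays, against 5.15, 5.14 and 5.06 on control arrays, a 2.47-fold rise (log2 1.30 ± 0.049 SE, limma adjusted p = 7.81e-06). Its upstream activator ATF4 was at 10.94 ± 0.006 on knockdown and 10.93 ± 0.025 on control arrays (SD, n = 3 each, limma adjusted p = 0.892). NFKB1 rose by 0.32 ± 0.048, and by 0.04 without passing when scaled to the hybridization controls. When scaled to the poly-A controls it was at 0.18 and passed (limma adjusted p = 0.041).

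The FOXO factors, which insulin and IGF signalling keep out of the nucleus, moved little at the RNA level. FOXO1 rose by 0.27 ± 0.059 (SE, limma adjusted p = 0.0262) and FOXO3 by 0.23 ± 0.061 (limma adjusted p = 0.0491), both over all genes. Over all probe sets FOXO3 did not pass at any (limma adjusted p of 0.0569 to 0.321). With its probe sets averaged it passed, at 0.17 (limma adjusted p = 0.0218). Scaled to the hybridization controls FOXO1 and FOXO3 were at -0.01 and -0.05. Dropping knockdown replicate 3 kept both calls, and dropping any 1 of the other 5 arrays ended them, with limma adjusted p of 0.0561 to 0.0911 for FOXO1 and 0.086 to 0.143 for FOXO3. NR3C1, the glucocorticoid receptor, fell by 0.25 ± 0.039 (SE, limma adjusted p = 0.00697) and kept the call on leaving out any array. FOXA2, a liver and lung pioneer factor, fell by 0.19 ± 0.046 (limma adjusted p = 0.0351), a call that only the fit without knockdown replicate 3 kept among those with 1 array dropped (otherwise adjusted p of 0.0725 to 0.12).

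Proteins that share the IGFBP-like N-terminal domain were also read. Of 13, 4 rose and 0 fell (limma), or 30.8% called beside 12.6% of all genes. An unadjusted limma p under 0.05 was found for 5 of the 13, beside 4814 of all 18132 genes. The median log2 change was -0.01, the same as over all genes to 2 decimals. CCN2, the matrix-associated connective tissue growth factor, read 5.63, 5.77 and 5.83 on knockdown arrays, against 5.02, 5.25 and 5.23 on control arrays, a 1.49-fold rise (log2 0.58 ± 0.076 SE, limma adjusted p = 0.00351), and its other 2 probe sets rose by 0.48 and 0.68. CCN1 rose by 0.35, CRIM1 by 0.30 and CCN5 by 0.19. Scaled to the hybridization controls none of these 3 passed as a rise, with CCN1 at 0.07, CRIM1 at 0.02 and CCN5 at -0.09. When scaled to the poly-A controls CCN1 passed, at 0.21 (limma adjusted p = 0.0435), while CRIM1 at 0.16 and CCN5 at 0.05 did not. The call was lost without each of the 3 control arrays for all of these, without knockdown replicate 2 or 3 for CCN1 and CCN5, and for no other array (adjusted p of 0.0519 to 0.0886).

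The genes whose pattern over the 6 arrays was most like that of IGFBP1 were sought among 90 genes whose range over the arrays was at least 0.5 times that of IGFBP1. CXCL3, a neutrophil-attracting chemokine, came first with a Pearson r of 0.9988 over the 6 arrays, at 7.99, 7.98 and 7.97 on knockdown arrays, against 7.03, 6.75 and 7.01 on control arrays. Like IGFBP1, it was lowest on control replicate 2. The RNA sensor RIGI (0.9956), the antiviral membrane protein IFITM3 (0.9944), the interferon regulatory factor IRF7 (0.9943) and the class I molecule HLA-F (0.9927) followed. With 6 arrays in 2 groups, these correlations mostly restate that all of these genes rose.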

How the data were processed

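The authors deposited log2 values, made with RMA per the submitters' processing notes, for 49372 probe sets on 6 one-colour arrays. RMA corrects background, quantile-normalizes arrays and summarizes probes, so changes are relative to the typical gene and are understated near background. The RMA software and its version are not named in those notes. Array medians were 5.10 to 5.11 and values were used as deposited.

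Gene symbols came from the platform annotation of the probe sets: 44994 had 1 symbol, 1832 several and 2546 none. Symbols of 44967 were updated by gene identifier. The probe set with the highest mean stood for each of 18132 genes. Knockdown and control were compared in R 4.3.3 by limma 3.58.1 (lmFit, eBayes, 2-sided, no covariate), with Benjamini-Hochberg adjustment over all genes or all probe sets and a threshold of 0.05. The number of arrays limits precision. The fit was tested on simulated data.

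The 10 genes, the lists, the settings tried and the naming rule were chosen with earlier results of these data known. That rule covered all 10 genes, every gene called in a list, a fixed set of pathway genes, the neighbours and the 5 genes most like IGFBP1. AKT1, AKT2, MTOR, PAPPA2, HTRA1, HTRA3, HTRA4, IGFALS, RPTOR and HIF1A lie outside it, having been picked once their values had been seen. List genes without a probe set of their own were not analysed here.

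Between groups arrays correlated at 0.9960 to 0.9963, within groups at 0.9983 to 0.9988. No pair shared more than 4.81% of values. Replicate numbers were not taken to pair samples, because the labels do not say that they do. Deviations of same-numbered arrays correlated at 0.092, 0.058 and -0.010.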

Additional observations from a re-analysis of the deposited data

How the results depend on the processing

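IGFBP1 kept its rise and its call wherever it was measured (log2 1.33 to 1.68). Since it was selected on its change between these same arrays, the kept call is no independent support. Leaving out _s_at and _x_at probe sets removed IGFBP1 and IGFBP3, so that 0 of the 10 genes rose, and made IGF2BP2 -0.0067. Hybridization controls were higher on knockdown arrays by 0.281 and poly-A controls by 0.141. Scaled to the hybridization controls, 15317 genes passed (232 rose, 15085 fell; the median gene at -0.29), 7 of the 10 genes fell, 4 pathway genes rose and 27 fell, 1 regulator rose and 17 fell, 1 IGFBP-related gene rose and 8 fell, and 8 neighbours fell. Signs turned for IGFBP3 and INSR (-0.081 each), IGFBP4 (-0.21), IGFBP7 (-0.25), IRS2 (-0.20), FOXO1 (-0.015), FOXO3 (-0.051), IGF2BP3 (-0.13), CCN5 (-0.091), IGF1 (-0.23), IGF2R and IRS1 (-0.26 each) and ATF4 (-0.27). Scaled to the poly-A controls, 8894 genes passed (497 rose, 8397 fell). With that scaling 1 of the 10 genes rose and 4 fell, and 7 pathway genes rose and 16 fell. Among regulators 2 rose and 9 fell, among IGFBP-related genes 2 rose and 5 fell, and 4 neighbours fell. There IGFBP4 was at -0.074, IGFBP7 at -0.11, IRS2 at -0.061, IGF1 at -0.091, IGF2R and IRS1 at -0.12 and ATF4 at -0.13. Cyclic loess turned the split of 1046 rises and 1239 falls into 1290 and 909.

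With probe sets averaged, 2 of the 10 genes rose (IGFBP1 and IGFBP3) and 0 fell, 1 pathway gene and 1 neighbour (TNS3) fell, IGF1R was at 0.023 and IGFBP5 at 0.021. With dim genes left out, 2 pathway genes and 1 neighbour fell. An intensity trend with robust eBayes passed 3502 genes, with 2 of the 10 rising (IGFBP1 and IGFBP3) and 1 pathway gene and 1 neighbour falling. Without variance moderation 1314 genes passed, 2 regulators rose and 1 fell, and 0 IGFBP-related genes rose. With the replicate block 1565 genes passed, 2 of the 10 rose (IGFBP1 and IGFBP3) and 0 fell, 2 regulators rose and 1 fell, and 2 IGFBP-related genes rose. The cause of these shifts was not tested. Leaving out 1 array gave 1104 to 1575 genes, 1 to 2 rises and 0 to 1 falls among the 10, 7 to 9 pathway rises, 2 to 4 rises and 1 to 2 falls of regulators and 1 to 4 rises of IGFBP-related genes. IGFBP7 ranged from -0.01 (without control replicate 1) to 0.065 and ATF4 from -0.0033 (without control replicate 2) to 0.022. Of the single genes compared under these settings, 408 values kept sign and side of the threshold, 68 lost the call, 15 gained it and 25 changed sign. Probe sets near the Tag controls (all of IGFBP5, most of INSR) limit what can be seen. No alternative was left unrun.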
